A study of Mus musculus with 9 samples.

Results

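Lewis lung carcinoma (LLC) cells grown in medium from macrophages that had seen no stress drug were set against untreated LLC cells, with 1 library on each side. The macrophages were of the kind labelled GM-BMDM, derived from bone marrow, and their medium is called unstressed GM medium here. The comparison covered the 11190 genes, of 21936 in the LLC table, whose level averaged at least 1 CPM (read counts scaled to a common library size) over the 5 LLC libraries. It used 2 of the 9 libraries of the series. A positive difference means more RNA with the medium, on the log2(CPM + 1) scale.

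All 5 LLC libraries came from the same mouse tumour line, given as C57BL strain and lung tissue. For the medium, GM-BMDM were kept without tunicamycin (0 h), washed, and left for 16 h in fresh medium with serum, in which LLC cells then spent 24 h. A second library, used below for direct comparison, had medium made in the same way by macrophages labelled M-BMDM (unstressed M medium). The remaining pair had medium from GM-BMDM or M-BMDM first treated with tunicamycin for 12 h (stressed GM and stressed M medium), a drug that blocks N-linked glycosylation and so burdens protein folding in the endoplasmic reticulum (ER). The labels do not say what the untreated LLC cells were grown in. No group had a replicate, so a difference between 2 libraries has no replicate check. The 4 libraries with medium share the same untreated library, so their differences from it are not independent of each other. Folds are ratios of CPM. Their exact 95% intervals hold counting error alone, and a read is not an independent molecule.

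Macrophages release cytokines, growth factors and matrix proteins into their medium. The integrated stress response is a pathway that low amino acid supply and other stresses engage, and in it the transcription factor ATF4 raises genes for amino acid synthesis, import and tRNA charging. Growth factor and cytokine signals act through ERK, AP-1 and NF-kB, while the TFEB family of transcription factors sets the level of lysosomal genes. These are background to the groups of genes described here, and none of them was measured at the protein level.

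The LLC libraries held 15020068 to 17128471 assigned reads, with 15020068 in the untreated library and 15423518 in that with unstressed GM medium. Mitochondrial mRNA took 2.2% to 2.37% of reads in the 5 libraries. Ribosomal protein mRNA took 5.38% in untreated cells and 4.54% to 4.75% in the 4 libraries with medium. The intermediate filament gene Vim stood at 2703 and 2830 CPM without and with the medium, the keratin gene Krt8 at 320 and 494 CPM and its partner keratin gene Krt18 at 42.4 and 32.0 CPM. Krt19 and Nkx2-1 had no reads in either library, Epcam and Cdh1 were at or below 0.195 CPM, and Krt7, Cldn4 and Sftpc were at or below 0.922 CPM. Apart from Krt8 and Krt18, the epithelial markers of the labelled carcinoma were thus near or at 0. Of 20 macrophage markers 11 had no reads in either library, among them Adgre1 (F4/80), Ptprc (CD45), Mrc1, C1qa, Tyrobp and Chil3. The macrophage markers summed to 42.9 CPM in untreated cells and 28.2 CPM with the medium, mostly from Cd14 and Mertk. Neutrophil markers summed to 0.725 and 0.52 CPM, and lymphocyte markers to 0.725 and 0.65 CPM. In such bulk libraries, fewer cells with a transcript and less of it per cell cannot be told apart.

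With unstressed GM medium 116 genes (1.04% of those compared) had a log2(CPM + 1) difference of 1 or more, and 216 (1.93%) one of -1 or less; these are called at least 2-fold higher or lower. The downward differences were also the larger ones: 15 genes lay at or below -2 and 2 at or above 2. Over all genes the median difference was 0.03, and 53.1% of genes were above 0. The higher genes had a median of 5.17 CPM in untreated cells and 13.8 CPM with the medium, and the lower genes 15.9 and 5.36 CPM. Just inside the upper threshold was Amotl2 (1.002), and just outside it Pidd1 (0.99935) and Zfp493 (0.99903). At the lower threshold Hoxc6 (-1.001) and Bach1 (-1.0003) were inside, and Celsr1 (-0.99931) and Akr1b3 (-0.99707) were outside.

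**Figure D1:**
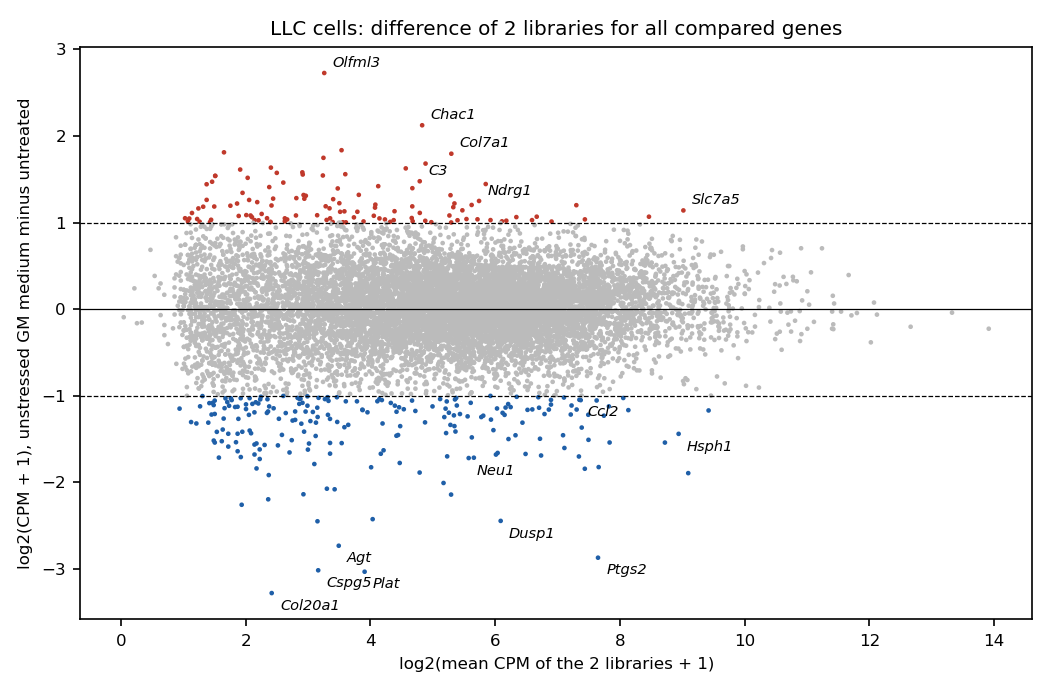
Each point is 1 of the 11190 compared genes, with its mean level in the 2 libraries on the x axis (log2(mean CPM + 1)) and the log2(CPM + 1) difference, unstressed GM medium minus untreated, on the y axis. Red points are the 116 genes at or above 1 and blue points the 216 at or below -1, and the blue points reach down to -3.28 (Col20a1) while the red ones reach 2.73 (Olfml3).

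A fit across the 5 LLC libraries, with medium against none, kind of medium and macrophage tunicamycin as additive terms, was read beside these folds. In edgeR (quasi-likelihood test, Benjamini-Hochberg adjusted p under 0.05) 2372 genes (21.2%) rose and 1995 (17.8%) fell with unstressed GM medium. DESeq2, in the same design, called 642 and 695. This fit has 1 residual degree of freedom and takes the untreated library to vary like the others. Its residual is how far kind of medium and macrophage tunicamycin fail to add up among the libraries with medium. The 1 untreated library is fitted exactly, so the p-values hold no spread of untreated cells. Nothing in the labels places these libraries in separate cultures. The words rose and fell are kept for calls of this fit, which are not given for the lists below. Higher and lower are used for the pair of libraries.

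The gene with the largest positive difference was Olfml3, a secreted olfactomedin-family glycoprotein of the matrix (chr3:103722222-103738001 of GRCm38). It stood at 1.51 CPM in untreated cells, 15.7 and 3.61 in unstressed GM and M medium, and 7.43 and 1.77 in stressed GM and M medium. Both GM media thus lay above both M media and the untreated library. The ratio of unstressed GM medium to untreated was 10.3 (6.73 to 16.6). Next came Chac1, which encodes a glutathione-degrading enzyme, at 9.62 CPM untreated and 45.3 with the medium (4.71-fold higher, 3.93 to 5.67). The stromal surface glycoprotein gene Cd248 was 4.2-fold higher (3.17 to 5.63), Col7a1, the chain of anchoring-fibril collagen, 3.62-fold (3.15 to 4.18), and the linker histone gene H1f2 3.38-fold (2.88 to 3.98). Metabolic genes among the 15 largest were the acyl-CoA synthetase Acsbg1 (3.28-fold, 2.75 to 3.94), Angptl4, a secreted inhibitor of lipoprotein lipase (4.05-fold, 2.66 to 6.36), and Pcyt1b, an enzyme of phosphatidylcholine synthesis (3.33-fold, 2.57 to 4.34). Complement component gene C3 was 2.92-fold higher (2.49 to 3.43). The other 6 were Ifi211, Lrrc15, Cfap97d2, Anxa9, Inava and Mrnip, from 3.42-fold for Inava to 4.53-fold for Mrnip. Ifi211, Anxa9 and Mrnip overlap other coding genes (Mndal, Mindy1 and Sqstm1), and without a stated strand setting their reads cannot be assigned with certainty. The same holds for overlapping genes named below, among them Ddit3 (Mars), Shmt2 (Ndufa4l2), Mcm7 (Cops6 and Ap4m1) and Dbp (Sphk2).

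At the other end, Col20a1, a collagen chain, had 132 reads in untreated cells (8.69 CPM) and 0 with unstressed GM medium. With a floor of 3 reads in that library the ratio was 44.6, and the exact 95% interval for 0 reads puts it at least 35.8-fold lower. It stood between 0.063 and 0.194 CPM in the other 3 media. Ptgs2, the inducible cyclooxygenase of prostaglandin synthesis (chr1:150100031-150108227), stood at 352 CPM untreated, 47.4 and 39.2 in unstressed GM and M medium, and 110.5 and 102.5 in stressed GM and M medium. It was 7.44-fold lower with unstressed GM medium (6.88 to 8.05), and each of the 4 media lay far below the untreated library. The tissue plasminogen activator gene Plat was 11.3-fold lower (8 to 16.5), the chondroitin sulfate proteoglycan gene Cspg5 15.3-fold (9.11 to 27.9), the angiotensin precursor gene Agt 9.53-fold (6.53 to 14.4) and the MAP kinase phosphatase gene Dusp1 5.66-fold (5.01 to 6.41). Efnb2, a membrane-bound ephrin ligand, was 16.4-fold lower (6.76 to 51.9) from 5.34 CPM, and Smpd3, a neutral sphingomyelinase, 4.66-fold (4.01 to 5.44). The rest of the 15 were Cryab, Slc45a3, Rgs9, Tmem252, Ereg, Prss35 and Fgd3, from 4.24-fold for Fgd3 to 8.81-fold for Rgs9. Cryab, Dusp1 and Smpd3 overlap Hspb2, Ergic1 and Prmt7.

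**Figure D2:**
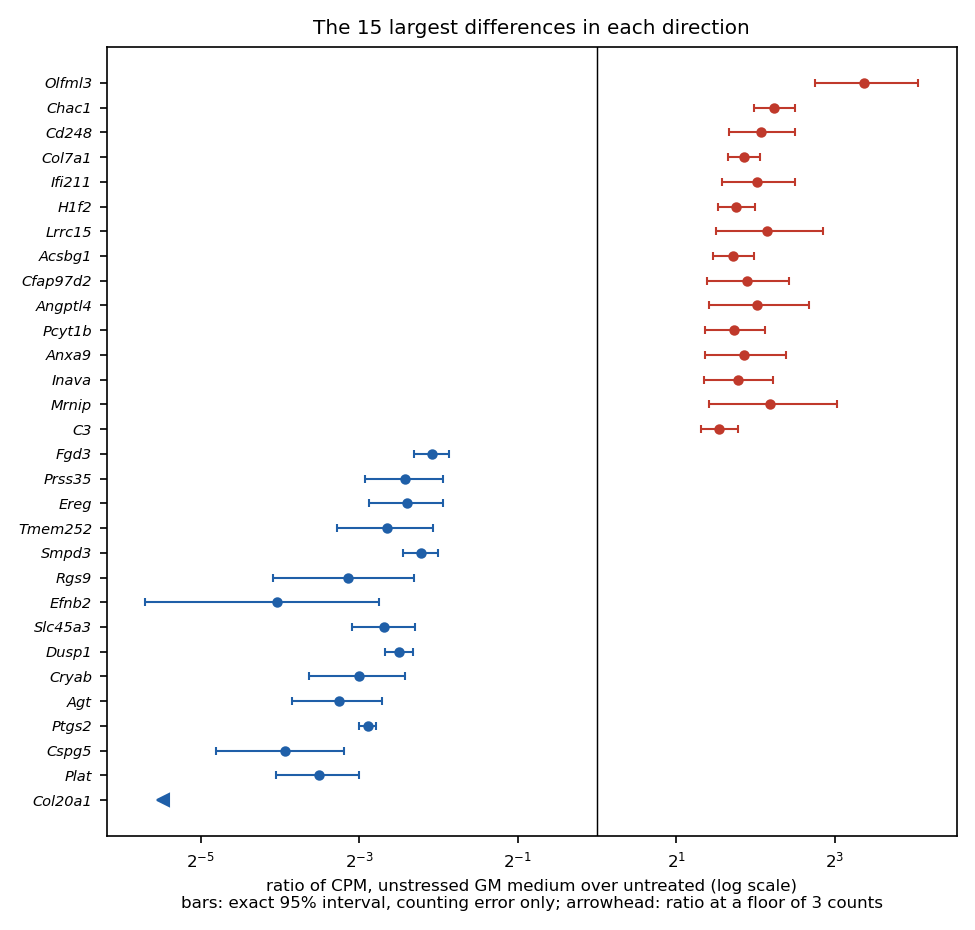
Ratio of CPM, unstressed GM medium over untreated (x axis, log scale), for the 15 largest log2(CPM + 1) differences in each direction, with exact 95% intervals for counting error. No interval reaches 1; Ptgs2 has the narrowest interval on this scale and Efnb2 the widest, and the arrowhead of Col20a1 marks the ratio at a floor of 3 reads.

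Genes of the integrated stress response and of amino acid supply were higher together with the medium. In 4 lists of the integrated stress response and its targets, 54 of 62 genes compared were above 0 and 8 below. Their median was 0.59 against 0.03 for all genes. At least 2-fold higher were 3 and at least 2-fold lower none, against 1.04% and 1.93% of all genes. Chac1 led the list of regulators and effectors (18 compared, median 0.59). The other 3 media gave 31.2 CPM (unstressed M), 33.9 (stressed GM) and 31.2 (stressed M), so that unstressed GM medium gave the highest of the 5 levels. Atf4 itself was 1.55-fold higher (1.51 to 1.59), Trib3, a pseudokinase target of ATF4, 1.93-fold (1.82 to 2.05), Sesn2, an inhibitor of mTORC1, 1.84-fold (1.72 to 1.97), and Ddit3, which encodes CHOP, 1.66-fold (1.43 to 1.94). Fgf21, a secreted hormone, was 2.22-fold higher (1.62 to 3.08) from 3.89 CPM. Other targets of the same pathway did not share the direction: Atf3 stood at 7.57 CPM untreated and 7.34 with the medium, Nupr1 at 83.2 and 81.7, and the stress cytokine gene Gdf15 at 16.4 and 12.0. Of the 18 genes 14 were above 0 and 4 below.

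The synthesis list held 12 genes, all above 0, with a median of 0.65. Psph, the last enzyme of serine synthesis, stood at 33.5 CPM untreated, 69.8 and 62.1 in unstressed GM and M medium, and 80.3 and 75.1 in stressed GM and M medium. All 4 media lay above the untreated library, and unstressed GM medium gave 2.09-fold (1.87 to 2.32). The preceding enzyme Psat1 was 1.73-fold higher (1.67 to 1.79), the first enzyme Phgdh 1.52-fold (1.48 to 1.56), the mitochondrial serine hydroxymethyltransferase Shmt2 1.74-fold (1.68 to 1.81), and asparagine synthetase, Asns, 1.57-fold (1.51 to 1.62). Among 12 amino acid transporters (median 0.55) 9 were above 0 and 3 below. Slc7a5, the large neutral amino acid carrier, was 2.21-fold higher (2.14 to 2.29), from 322 to 712 CPM. Slc1a4 was 1.85-fold higher (1.74 to 1.98). The cystine carrier Slc7a11 stood at 23.8 CPM untreated and 24.1 with the medium. Of 20 aminoacyl-tRNA synthetases 19 were above 0 (median 0.51). They included the leucyl, asparaginyl and glycyl enzymes Lars (1.88-fold, 1.8 to 1.97), Nars (1.8-fold, 1.74 to 1.86) and Gars (1.75-fold, 1.7 to 1.8), with Qars as the exception at -0.23.

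ER chaperones, which belong to the response to folding stress in the ER, differed less. The list of 24 had a median of 0.11, against 0.03 for all genes. None of its members was at least 2-fold higher, against 1.04% of all genes, a share too small for 24 genes to show a lack. The main ER chaperone gene Hspa5 stood at 985 CPM untreated, 1158 and 1206 in unstressed GM and M medium, and 2555 and 2907 in stressed GM and M medium. The unstressed media were thus close to the untreated level and the stressed media well above it, and the ratio for unstressed GM medium was 1.18 (1.15 to 1.2). Xbp1, a transcription factor of this response, was 1.21-fold higher (1.14 to 1.29), the oxidase gene Ero1l 1.89-fold (1.81 to 1.98) and Herpud1, which acts in ER-associated degradation, 1.67-fold (1.53 to 1.83).

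Promoter sequence was read for these lists because they share a known binding motif, that of C/EBP-ATF dimers, searched as TGATGNAA on both strands. The windows ran from 250 bases before to 50 after each gene start (RefSeq, GRCm38.p6) and 8999 of the compared genes had one by symbol. Of these 2.59% held the motif, against 6 of 16 stress response genes with a window (37.5%), 2 of 11 synthesis genes (18.2%), 2 of 8 transporters (25%) and 5 of 13 tRNA synthetases (38.5%). The lists are made largely of known targets of ATF4, so the motif describes them and says nothing of binding in these cells. The 250 bases before the start are shown for the members with the largest differences among those with a match there, with the match in capitals in either orientation, 193 bases before the start in Chac1 and 139 in Fgf21.
Chac1, chr2:119350992-119351241, + strand: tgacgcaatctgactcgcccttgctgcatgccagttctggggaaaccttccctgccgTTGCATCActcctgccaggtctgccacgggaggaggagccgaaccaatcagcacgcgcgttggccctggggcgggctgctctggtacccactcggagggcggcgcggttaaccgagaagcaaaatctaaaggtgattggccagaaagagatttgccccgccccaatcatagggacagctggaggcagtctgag
Fgf21, chr7:45615491-45615740, - strand: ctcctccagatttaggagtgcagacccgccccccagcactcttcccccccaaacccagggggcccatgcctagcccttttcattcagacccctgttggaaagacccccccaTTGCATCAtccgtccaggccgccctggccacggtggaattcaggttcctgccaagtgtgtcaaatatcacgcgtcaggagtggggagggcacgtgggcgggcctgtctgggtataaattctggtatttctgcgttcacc

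Genes for DNA replication were the list with the highest median of those with more than 3 members compared. Of 35 compared, 34 were above 0, against 53.1% of all genes, with a median of 0.74. At least 2-fold higher were 2 of the 35, against 1.04% of all genes. Cdc6, which loads the replicative helicase, stood at 26.7 CPM untreated, 60.2 and 56.6 in unstressed GM and M medium, and 68.6 and 70.8 in stressed GM and M medium. It was 2.25-fold higher with unstressed GM medium (2 to 2.54), and all 4 media were above the untreated library. Pola1, the catalytic subunit of DNA polymerase alpha, was 2.03-fold higher (1.89 to 2.18), the helicase subunits Mcm7 and Mcm5 1.99-fold (1.87 to 2.12) and 1.96-fold (1.85 to 2.09), and the ribonucleotide reductase subunit Rrm2 1.98-fold (1.89 to 2.06). Gins3 was the exception at -0.43. Mitosis genes differed less (22 compared, 19 above 0, median 0.30), led by Birc5, the survivin gene, at 1.61-fold (1.49 to 1.73). Ribosome biogenesis genes had a median of 0.27 with 19 of 20 above 0, among them the nucleolar protein gene Nop56 (1.59-fold, 1.53 to 1.66). Myc was 1.25-fold higher (1.2 to 1.3). The inhibitor of cyclin-dependent kinases Cdkn1a was higher too, at 7.64 CPM untreated and 17.02 with the medium (2.23-fold, 1.78 to 2.8).

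A motif of E2F, the factor known for this set of genes, was searched as TTTNGCGC on both strands. It was in 2.84% of all windows and in those of 10 of 28 replication genes (35.7%). The list is made of genes known for E2F, so the motif describes it and says nothing of binding in these cells. Of the at least 2-fold higher genes 3 of 85 with a window held it (3.53%). Pola1 and Mcm5 are shown as the members with the largest differences among those with a match before the start. The match begins 138 bases before the start of Pola1, and Mcm5 has 2 overlapping matches, 153 and 149 bases before its start.
Pola1, chrX:93632156-93632405, - strand: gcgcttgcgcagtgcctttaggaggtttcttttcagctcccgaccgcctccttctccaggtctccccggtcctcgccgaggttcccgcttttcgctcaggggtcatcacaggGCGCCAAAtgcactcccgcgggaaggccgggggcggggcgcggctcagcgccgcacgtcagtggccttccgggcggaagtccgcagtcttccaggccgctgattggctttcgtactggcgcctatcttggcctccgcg
Mcm5, chr8:75109259-75109508, + strand: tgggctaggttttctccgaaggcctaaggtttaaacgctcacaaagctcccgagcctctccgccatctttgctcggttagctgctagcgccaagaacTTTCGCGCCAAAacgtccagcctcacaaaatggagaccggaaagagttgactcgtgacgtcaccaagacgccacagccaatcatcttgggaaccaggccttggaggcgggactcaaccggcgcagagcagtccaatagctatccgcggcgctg

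The lists of NF-kB, prostaglandin, ERK feedback and AP-1 genes had medians below 0, each with members on both sides of 0. Of 15 NF-kB cytokines, chemokines and feedback genes, 10 were below 0 and 5 above (median -0.33). In this list 4 genes were at least 2-fold lower and none higher, against 1.93% and 1.04% of all genes. The monocyte chemokine gene Ccl2 stood at 219 CPM untreated, 105.6 and 83.0 in unstressed GM and M medium, and 144.6 and 81.5 in stressed GM and M medium. It was 2.07-fold lower with unstressed GM medium (1.95 to 2.2), and the stressed GM library came nearest to the untreated one. Neutrophil chemokine gene Cxcl1 was 2.6-fold lower (2.28 to 2.96), Cxcl2 2.25-fold (1.78 to 2.85), and the cytokine gene Lif 2.89-fold (2.06 to 4.12) from 8.83 CPM. The 5 above 0 were Cxcl5, Csf1, Vcam1, Ccl7 and Nfkb1, by at most 0.23. Of 8 prostaglandin pathway genes 5 were below 0 and 3 above, and 2 were at least 2-fold lower, Ptgs2 and the synthase gene Ptgds (3.45-fold, 1.91 to 6.6, from 3.36 CPM). Pla2g4a, the phospholipase that releases arachidonic acid, was 1.71-fold lower (1.6 to 1.83), while Ptgis, the prostacyclin synthase, was 2.03-fold higher (1.64 to 2.52).

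All 8 genes of plasminogen activation and coagulation that were compared were below 0, against 46.9% of all genes. Of the 8, 3 were at least 2-fold lower, against 1.93% of all genes. The list's median of -0.74 was the lowest of all lists with 3 or more members. Plat stood at 25.8 CPM untreated, 2.27 and 1.48 in unstressed GM and M medium, and 2.65 and 3.08 in stressed GM and M medium. Every one of the 4 media lay far below the untreated library. The urokinase gene Plau was 2.24-fold lower (2.11 to 2.39; 218 and 97.0 CPM) and its receptor gene Plaur 2.27-fold (1.99 to 2.59). Tissue factor, F3, which starts coagulation, was 1.97-fold lower (1.83 to 2.12).

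Feedback genes of the ERK pathway, which its signal is known to induce, were below 0 for 15 of 16 members (median -0.51). Of all genes 46.9% were below 0. Dusp1 stood at 114 CPM untreated, 20.1 and 29.1 in unstressed GM and M medium, and 20.1 and 25.6 in stressed GM and M medium. All 4 media therefore lay far below the untreated level. Dusp4 was 2.33-fold lower (2.17 to 2.51) and the Sprouty inhibitor Spry4 2.08-fold (1.94 to 2.23), and Etv5 was the exception at 0.69. All 5 EGF-family ligands compared were below 0, with epiregulin, Ereg, the lowest (5.26-fold, 3.85 to 7.32). Egf stood at 4.02 CPM untreated and 3.51 with the medium, a ratio whose interval spans 1, and Btc rested on 28 and 12 reads. The AP-1 and EGR list was mixed, with a median of -0.11, 7 of 13 genes below 0 and 6 above. Its lower end held the early-response gene Ier3 (2.86-fold, 2.7 to 3.04; 266 and 93.0 CPM), Fosb (5.52-fold, 2.68 to 12.8, from 3.23 CPM), Maff (2.41-fold, 2.17 to 2.69) and Jun (1.86-fold, 1.74 to 2). Its upper end held Ier2 and Junb at 0.68 and 0.63. The AP-1 motif TGANTCA was in 5.93% of all promoter windows and in 17 of 170 (10%) of the at least 2-fold lower genes that had one, against 7 of 85 (8.24%) of the at least 2-fold higher genes. It was in none of 12 windows of ERK feedback genes and in 4 of 9 of the NF-kB list (44.4%).

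**Figure D3:**
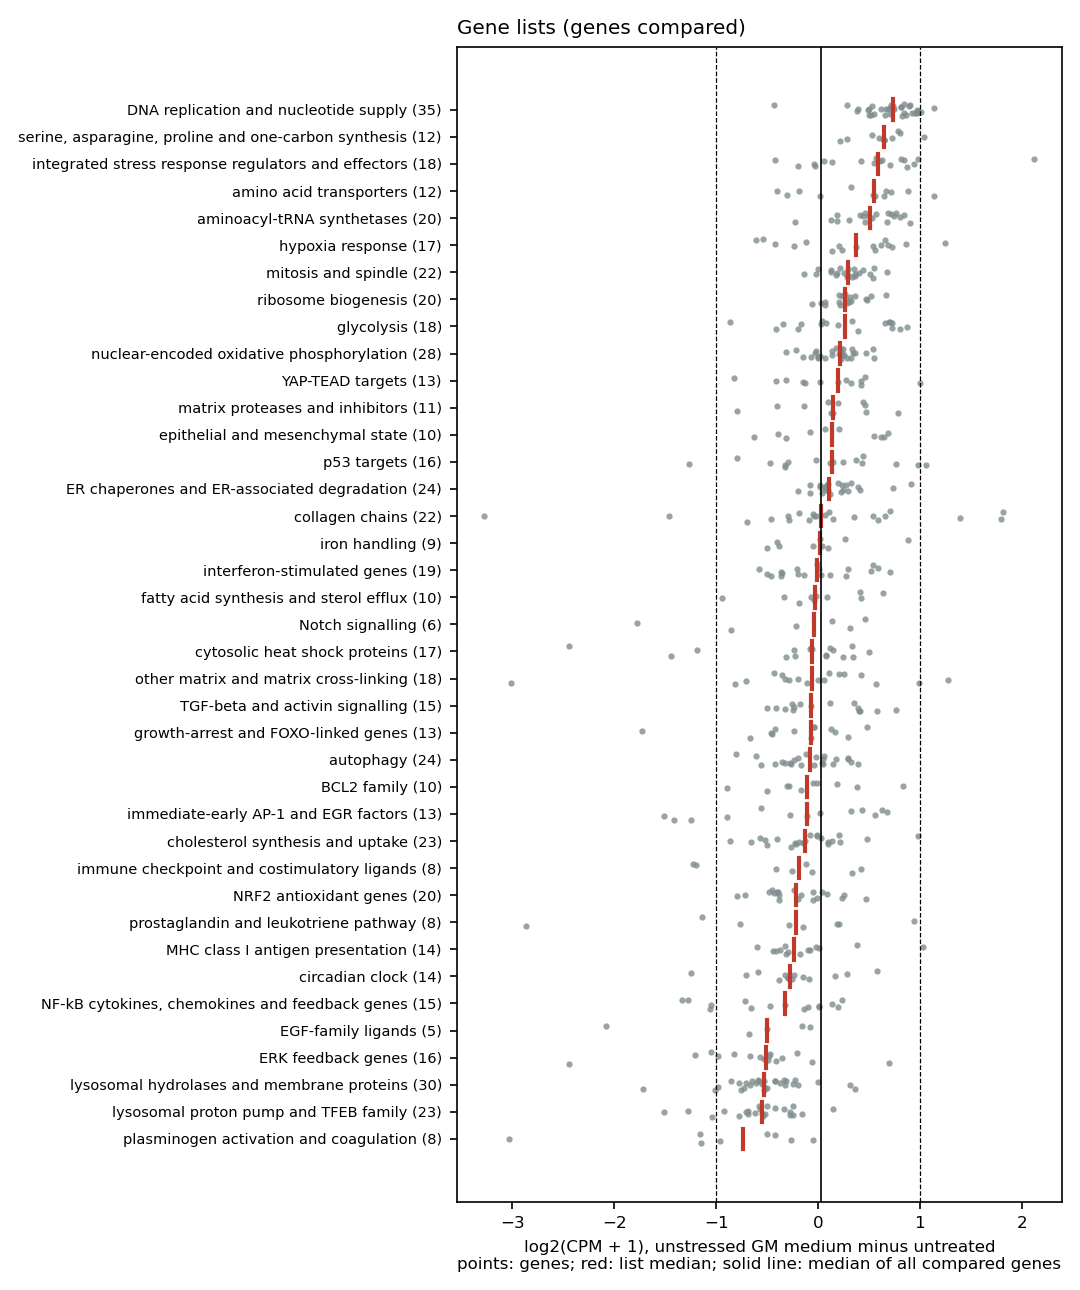
Each grey point is a gene of a list (rows, number compared in brackets) at its log2(CPM + 1) difference, unstressed GM medium minus untreated (x axis); the red bar is the list's median and the solid line the median of all compared genes, 0.03. DNA replication, stress response and amino acid supply lists are at the top, lysosomal and plasminogen lists at the bottom, and dashed lines mark -1 and 1.

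Lysosomal genes were lower almost throughout, by modest amounts. Across 30 hydrolases and membrane proteins and 23 genes of the proton pump and the TFEB family, 50 of 53 were below 0 and 5 were at least 2-fold lower, with a median of -0.54. Below 0 were 28 of the 30 and 22 of the 23, against 46.9% of all genes. Of all genes 1.93% were at least 2-fold lower. The sialidase gene Neu1 (chr17:34931253-34935953) stood at 72.2 CPM untreated, 21.2 and 32.4 in unstressed GM and M medium, and 28.7 and 37.2 in stressed GM and M medium. It was 3.4-fold lower with unstressed GM medium (3 to 3.86), the lowest of the 5 libraries. Hexa, a subunit of hexosaminidase, was 2.03-fold lower (1.87 to 2.22), the cystine exporter Ctns 2-fold (1.79 to 2.24), the protease gene Ctsd 1.69-fold (1.58 to 1.82) and the membrane protein gene Lamp1 1.71-fold (1.67 to 1.76; 950 and 554 CPM). Subunit genes of the proton pump that acidifies the organelle included Atp6v0a1 (2.46-fold, 2.22 to 2.73) and Atp6v0b (2.1-fold, 1.86 to 2.37). Rragd, a GTPase of nutrient signalling at the lysosome, was 3.6-fold lower (2.5 to 5.31) from 8.89 CPM, and Flcn, which acts on that GTPase, 1.91-fold (1.75 to 2.08). Genes for the factors themselves differed less: Tfe3 was at -0.50, Tfeb at -0.25 and Mitf at 0.14. Gusb and Sgsh, both hydrolases, were the other genes above 0, at 0.31 and 0.36. The macrophage marker sum was lower with the medium as well (42.9 and 28.2 CPM). Of these markers Cd68 was 5.32-fold lower (2.47 to 13.1) from 2.77 CPM. Lyz2 stood at 5.01 and 2.73 CPM, Csf1r at 0.329 and 0.325 and Arg1 at 0.988 and 1.04, while 11 of the 20 had no reads in either library. The part of macrophages in the lysosomal values was not tested. Of 24 autophagy genes 10 were above 0 and 14 below (median -0.08).

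The E-box CACGTG, core of the element that TFEB binds, was in 11.9% of all windows, in those of 12 of 23 hydrolase and membrane protein genes (52.2%) and of 6 of 19 pump and TFEB family genes (31.6%). It was also in the windows of 4 of 13 tRNA synthetases (30.8%) and 3 of 16 stress response genes (18.8%), lists whose medians were above 0. Other factors bind it too. Of the at least 2-fold lower genes 26 of 170 with a window held it (15.3%). Lysosomal genes are known for this element, so the motif describes the lists and says nothing of binding in these cells. Shown are the members with the largest differences among those with a match before the start: Atp6v0b, with matches 36 and 18 bases before it, and Lamp1, with 4 matches, of which the first begins 61 bases before it.
Atp6v0b, chr4:117887330-117887579, - strand: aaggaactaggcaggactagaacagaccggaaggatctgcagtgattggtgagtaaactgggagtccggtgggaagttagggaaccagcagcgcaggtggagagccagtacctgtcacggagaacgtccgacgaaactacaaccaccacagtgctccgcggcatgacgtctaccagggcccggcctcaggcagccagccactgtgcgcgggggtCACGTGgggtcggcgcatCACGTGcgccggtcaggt
Lamp1, chr8:13158911-13159160, + strand: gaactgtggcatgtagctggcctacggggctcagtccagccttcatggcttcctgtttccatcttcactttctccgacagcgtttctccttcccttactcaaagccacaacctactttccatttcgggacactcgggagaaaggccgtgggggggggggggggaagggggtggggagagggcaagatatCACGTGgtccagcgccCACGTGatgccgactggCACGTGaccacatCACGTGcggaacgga

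The same values were read for unstressed M medium. Both media are set against the same untreated library, so their differences from it are not independent and are given side by side. Unstressed M medium gave 56 genes (0.5%) at least 2-fold above untreated and 157 (1.4%) at least 2-fold below. List medians with GM and M medium were 0.74 and 0.70 for DNA replication, 0.59 and 0.34 for the stress response, 0.65 and 0.46 for amino acid synthesis, -0.74 and -0.94 for plasminogen activation, and -0.51 and -0.36 for ERK feedback. They were -0.53 and -0.24 for lysosomal hydrolases and -0.55 and -0.26 for the proton pump list. Set directly against each other, without the untreated library, the 2 unstressed media were at least 2-fold apart for 21 genes, with GM medium above M medium for 14 (0.125%) and below it for 7 (0.0626%). Over all genes the direct difference had a median of 0.01, with 90% of genes between -0.33 and 0.31.

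In that direct comparison 5359 of all 11190 genes were lower with GM medium and 5831 higher. Of the lysosomal genes 49 of 53 were lower (median -0.25), with Neu1 1.52-fold lower (1.32 to 1.76) and Atp6v0b 1.56-fold (1.37 to 1.77). Genes of the 4 stress response and amino acid supply lists were higher with GM medium for 57 of 62 (median 0.17). Among them Chac1 was 1.45-fold higher (1.29 to 1.64) and Trib3 1.17-fold (1.11 to 1.23). Replication genes had a direct median of 0.08, and Cdc6 stood at 60.2 and 56.6 CPM in the GM and M media. Cholesterol synthesis and uptake genes were lower with GM medium than with M medium for 20 of 23 (median -0.17), led by Insig1, a brake on sterol synthesis (1.64-fold lower, 1.56 to 1.72). The transferrin receptor gene Tfrc stood at 294 CPM untreated, 208 and 354 in unstressed GM and M medium, and 343 and 431 in stressed GM and M medium, and was thus lowest with unstressed GM medium. These list medians are a description over 2 libraries with no replicate, and no test of them was made.

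**Figure D4:**
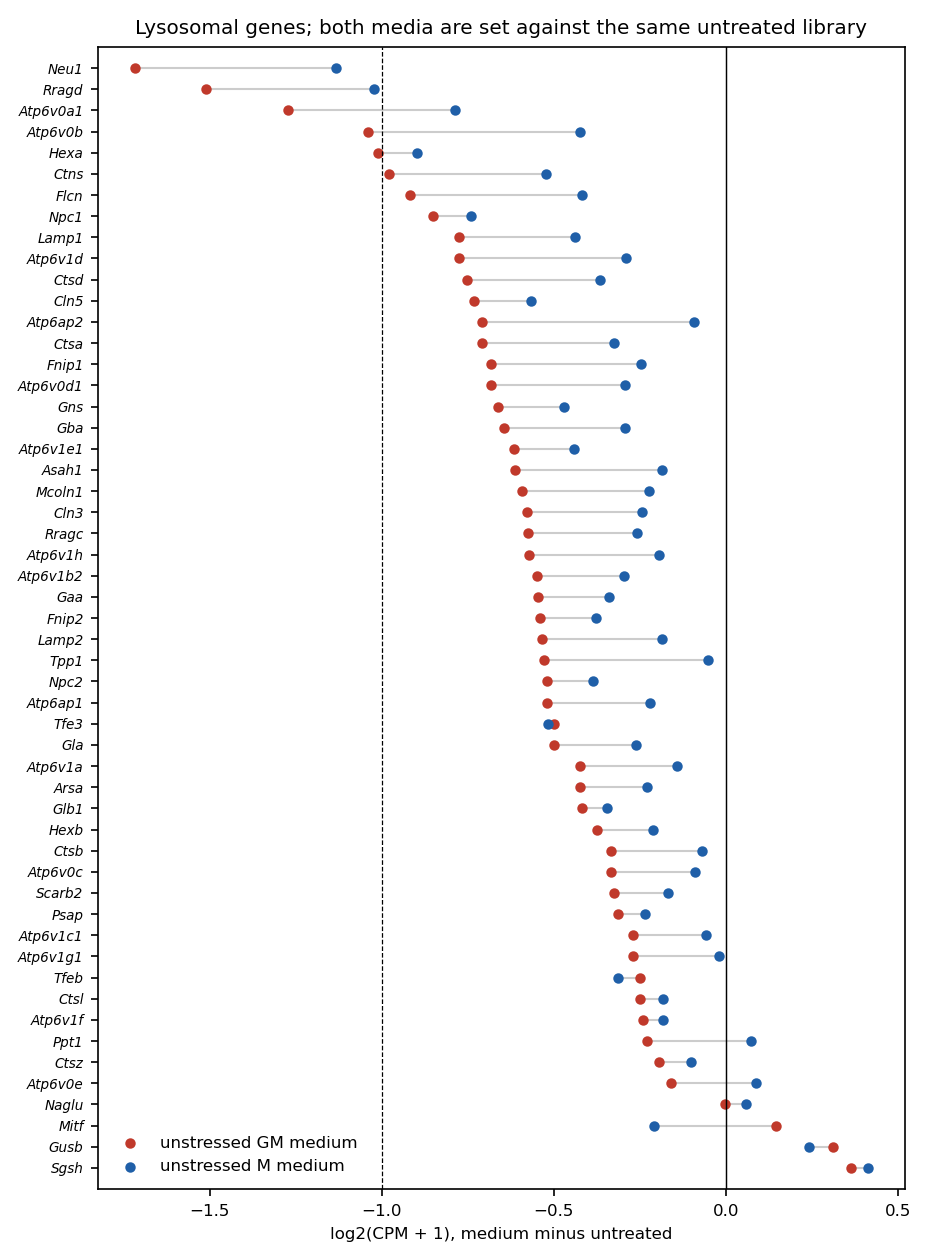
Log2(CPM + 1) difference from the untreated library (x axis) for the 53 lysosomal genes compared (rows), with unstressed GM medium in red and unstressed M medium in blue. Both media share the untreated library; red lies left of blue in 49 of the 53 rows, and Neu1 and Rragd are furthest to the left.

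Matrix genes were among those with the largest direct differences between GM and M medium, but the lists were mixed. Of 22 collagen chains 16 were above M medium and 6 below (median 0.18). Of 18 other matrix genes 11 were above and 7 below (median 0.14). Col7a1 (chr9:108953586-108984875) stood at 16.6 CPM untreated, 60.1 and 16.4 in unstressed GM and M medium, and 38.5 and 12.4 in stressed GM and M medium. The 2 GM media were above the other 3 libraries, and unstressed GM medium was 3.67-fold above unstressed M medium (3.19 to 4.23). C3 was likewise higher with both GM media, at 13.6 CPM untreated, 39.8 and 82.7 with unstressed and stressed GM medium, and 12.6 and 11.7 with unstressed and stressed M medium. Olfml3 was 4.33-fold higher with GM than with M medium (3.23 to 5.91), Col12a1, a fibril-associated collagen, 2.48-fold (2.12 to 2.91), the small proteoglycan gene Bgn 2.43-fold (1.89 to 3.15), Col8a1 2.86-fold (2.24 to 3.69) and the fibrillin gene Fbn1 1.93-fold (1.76 to 2.11). Of the 14 genes at least 2-fold higher with GM than with M medium, the others were Ass1, an enzyme of arginine synthesis (3.32-fold, 2.19 to 5.18), the chemokine gene Ccl7 (2.44-fold, 1.84 to 3.26), the matrix signalling protein gene Ccn1 (2.41-fold, 1.72 to 3.41), the growth factor gene Pdgfc (2.37-fold, 1.69 to 3.36), Inava, Tph1, Gli1 and Atp8b4. Ccl7 stood at 11.1 CPM untreated, 11.2 with GM medium and 4.58 with M medium. Col8a1 with GM medium was not at least 2-fold above untreated. The 7 lower genes were the acetylcholine receptor subunit gene Chrnd (3.67-fold, 2.48 to 5.57), Agt (2.85-fold, 1.86 to 4.47), Rgs9, Palm3, Tmem74, Flt3l and Iqcd. These 21 genes were chosen by their values, so their differences are a description.

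**Figure D5:**
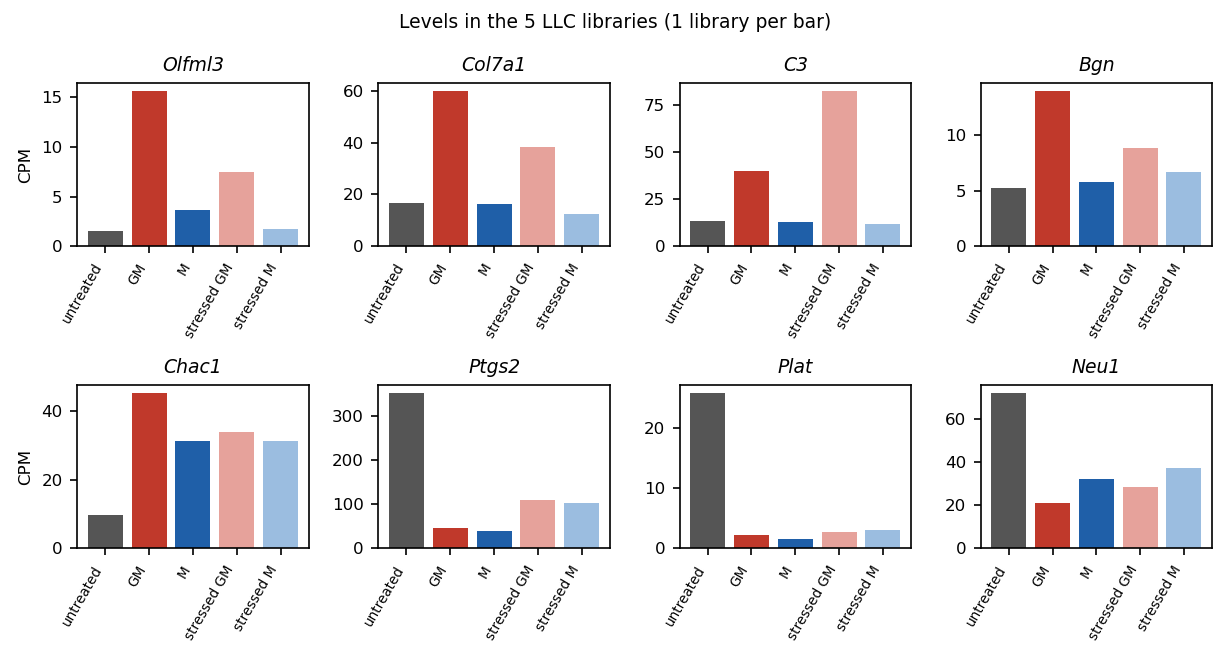
CPM (y axis, from 0) in each of the 5 LLC libraries, 1 library per bar, for 4 genes that stood higher with unstressed GM medium than with unstressed M medium by 2-fold or more (top row) and 4 others (bottom row). In the top row the unstressed GM bar stands above the untreated and both M bars; in the bottom row the 4 media lie on one side of the untreated bar.

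Collagens as a list split. Of 22 chains compared, 11 were above and 11 below 0 against untreated (median 0.03), with 3 at least 2-fold higher, Col1a2, Col7a1 and Col12a1, and 2 lower, Col20a1 and Col11a2. Col1a2 rested on 6 reads in untreated cells and 60 with the medium (9.86-fold, 4.28 to 27.9). Col3a1 was 1.51-fold higher (1.48 to 1.54; 1095 and 1650 CPM), which carried most of a fibroblast marker sum of 1266 and 1828 CPM, while of the fibroblast receptor genes Pdgfrb was 1.28-fold lower (1.17 to 1.4) and Pdgfra 1.23-fold higher (1.14 to 1.32). Of the other fibroblast markers Lum stood at 5.34 and 5.59 CPM. Dcn, Col1a1, Fap and Acta2 lay between 0 and 0.79 CPM in these libraries, and Thy1 had no reads. The part of fibroblast-like cells in the values of these markers was not tested. All 11 matrix proteases and inhibitors compared were above 0 in the direct comparison with M medium (median 0.32), and 8 of 11 against untreated (median 0.14). The membrane collagenase gene Mmp14 was 1.74-fold lower than untreated (1.66 to 1.83) and the stromelysin gene Mmp11 1.73-fold higher (1.6 to 1.88). The angiomotin genes, both targets of YAP, differed in opposite directions, with Amotl2 2.04-fold higher (1.81 to 2.31) and Amotl1 1.78-fold lower (1.72 to 1.84). Notch1 was 3.69-fold lower (3.05 to 4.48) and Notch2 1.38-fold higher (1.33 to 1.43).

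The 17 heat shock genes compared had a median of -0.05, and 3 of them were at least 2-fold lower, against 1.93% of all genes. Hsph1, a cytosolic partner of HSP70, stood at 717 CPM untreated, 264 and 277 in unstressed GM and M medium, and 326 and 352 in stressed GM and M medium. It was 2.72-fold lower with unstressed GM medium (2.62 to 2.82), and the 4 media formed a group apart from the untreated library. The inducible HSP70 gene Hspa1b was 2.38-fold lower (2 to 2.84) and Cryab, a small heat shock protein gene, 8-fold (5.34 to 12.4), whereas Hsp90aa1 was 1.41-fold higher (1.38 to 1.45). Hspa4l, a relative of Hsph1 outside the list and picked after its values were seen, was 3.72-fold lower (3.59 to 3.87).

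Hypoxia response genes had a median of 0.37 (17 compared, 12 above 0 and 5 below), led by Ndrg1 at 2.42-fold (2.17 to 2.71). The angiogenic factor gene Vegfa was at 1.47-fold (1.41 to 1.54). Glycolysis genes had a median of 0.27, with the lactate exporter Slc16a3 1.83-fold higher (1.75 to 1.92) and the isoenzyme gene Eno2 1.93-fold lower (1.53 to 2.44). Nuclear genes of oxidative phosphorylation had a median of 0.22, with 20 of 28 above 0 and 8 below. Of the 14 MHC class I genes 11 were below 0 (median -0.23), B2m among them at 1.33-fold lower (1.28 to 1.38), and the immunoproteasome subunit gene Psmb10 was 2.23-fold higher (1.72 to 2.93). Interferon-stimulated genes had a median of -0.01. The checkpoint ligand gene Cd274, which encodes PD-L1, stood at 6.85 CPM untreated and 6.24 with the medium, a ratio whose interval spans 1. Pvr, a ligand of T and NK cell receptors, was 2.39-fold lower (2.15 to 2.65) and the costimulatory ligand gene Tnfsf9 2.76-fold (1.93 to 4.01). NRF2 antioxidant genes had a median of -0.22 (15 of 20 below 0). Circadian clock genes had one of -0.27, with the clock output gene Dbp 2.69-fold lower (2.01 to 3.62). Pro-apoptotic Bcl2l11, which encodes BIM, was 1.87-fold lower (1.74 to 2.02) and Pik3ip1, an inhibitor of PI3 kinase, 5.29-fold (3.17 to 9.32).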

How the data were processed

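RNA from 9 mouse cultures was sequenced, 5 of LLC cells and 4 of macrophages. Gene counts and FPKM for LLC were deposited by the authors in 1 table, per the file headers, and each line carried a stray carriage return in its last quoted cell, which was stripped. The deposited counts were whole numbers, and FPKM recomputed from count, length and total differed from the deposited FPKM by at most 5e-07 and served that check alone. Counts of untreated GM-BMDM, deposited by the authors in another table, were used to see that macrophage markers are read. Cutadapt 1.15, HISAT2 and TopHat2 2.1.0 are named without roles in the submitters' processing notes. Not given in the sources used here are the counter, its strand setting and the build. GENCODE M21 (GRCm38) held 21817 LLC gene IDs, of which 21604 (99%) had equal coordinates, and positions are given for that build.

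CPM used TMM library sizes from edgeR 4.0.16 (R 4.3.3) over the 5 LLC libraries. Differences are of log2(CPM + 1), called from 1 or -1, over genes with a mean of at least 1 CPM. The log2 values were computed here from the deposited counts, and they understate the change of low genes. Folds are ratios of CPM with exact Clopper-Pearson 95% intervals (scipy 1.17.1), and a count of 0 was set to a floor of 3. The additive fit used edgeR's quasi-likelihood test. Its coefficient of variation was 4.3% and its prior degrees of freedom were infinite, so the spread came from the trend over genes. DESeq2 1.42.0, other scalings, pseudocounts and minimum levels were alternatives.

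The genes followed and the 49 lists, of which 8 are cell type markers, were chosen with earlier results of these data known. Named are the 15 largest differences per direction (5 CPM or more in 1 of the 2 libraries, ordinary symbol), up to 4 members per list with the largest differences, and 12 fixed genes, while other printed list members illustrate a list and were picked after their values were seen. Promoter windows came from RefSeq.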

Additional observations from a re-analysis of the deposited data

How the results depend on the processing

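Of the counts of genes at least 2-fold higher (116) and lower (216), those with DESeq2 size factors or total counts (103 and 224) stayed within 1.5 times. A pseudocount of 0.25 CPM gave 203 higher and 299 lower, one of 5 CPM gave 27 and 93, and a mean of at least 5 CPM gave 82 and 136. Higher genes made up 34.9% of calls, 40.4% with a pseudocount of 0.25 and 22.5% with one of 5. With no minimum beyond 1 read the counts were 122 and 260. DESeq2 called 642 higher and 695 lower in the additive design, where edgeR called 2372 and 1995, and the cause was not tested. Of 270 list medians under an alternative 18 moved, and the medians of iron handling, TGF-beta and activin signalling, and heat shock changed sign, all from within 0.07 of 0. Named genes were checked for a change of direction only where at least 2-fold higher or lower, and none changed. That outcome says little, because a pseudocount cannot change a direction. With DESeq2 size factors or total counts the median over all genes was 0.01, against 0.03, a shift too small to reverse such genes. Depth limits genes of few reads, such as Col1a2 and Efnb2. No paired analysis was possible because each group held 1 library.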
